A study of Mus musculus with 6 samples.

Results

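Nectins and classical cadherins are the adhesion molecules that join neighboring cells of an epithelium at the adherens junction. The genes described here were the 4 nectins *Pvrl1*, *Pvrl2*, *Pvrl3* and *Pvrl4* (now *Nectin1* to *Nectin4*), the 4 classical cadherins *Cdh1*, *Cdh2*, *Cdh3* and *Cdh4*, and *Mllt4* (now *Afdn*), which encodes afadin. They were taken by name, and no value on the arrays entered the rule, although earlier results of these data were known when it was written. Of these 9 genes, 8 had an array cluster of their own among 20259 named genes. *Mllt4* shared its only cluster with *Sod2* and is given no value. Wild type mouse cochlear explants were taken at E15.5 and cultured with 3.33 µM DAPT, an inhibitor of γ-secretase that blocks the cleavage of Notch receptors, or with the vehicle DMSO at 0.013% (control). In each of 3 experiments 1 DAPT and 1 control array were made from the enzymatically isolated cochlear epithelium, after a culture that the labels give as 23 hours for experiment 1, 19 for experiment 2 and 24 for experiment 3. The explants held the cochlear duct with attached mesenchyme and innervating neurons, and explants were pooled within a condition before the epithelium was isolated, so that an array stands for a pool of tissue and not for 1 animal. The labels call the tissue wild-type, while the culture methods name *P27/GFP* transgenic embryos. The range of culture times in the paper ends below the 23 and 24 hours that the labels give.

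As background, nectins bind across the junction, and unlike nectins bind each other more strongly than like ones. In the mouse cochlea hair cells (HCs) carry nectin-1 and supporting cells (SCs) carry nectin-3, and this unequal pairing underlies the checkerboard in which HCs and SCs alternate. Afadin anchors nectins to actin, while catenins anchor cadherins. E-cadherin, encoded by *Cdh1*, is found mainly in the lateral part of the sensory epithelium and N-cadherin, encoded by *Cdh2*, mainly in its medial part. Nectin-1, E-cadherin and N-cadherin are also themselves cut by γ-secretase. The arrays measure RNA and say nothing on this cleavage.

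The RefSeq table of promoter windows (GRCm38.p6) held 4 of the 9 genes, *Pvrl2*, *Pvrl3*, *Pvrl4* and *Mllt4*. The 250 bases before the start given there are printed for *Pvrl3* and *Pvrl2*. These are a nectin gene that was lower and a nectin gene that was higher with DAPT in every experiment. For *Pvrl3* this start lies inside the gene, which spans bases 46387665 to 46498535 of chromosome 16, so its window is not upstream of the whole gene. The *Mllt4* window, 13760291 to 13760540 on chromosome 17, likewise runs past the first base of its gene at 13760391. The matches reported for *Mllt4* lie past that base. Capitals mark the letters TGGGAA, read on either strand, which RBP-J, the DNA-binding partner of the Notch intracellular domain, recognizes.
Pvrl3, chr16:46496968-46497217, minus strand: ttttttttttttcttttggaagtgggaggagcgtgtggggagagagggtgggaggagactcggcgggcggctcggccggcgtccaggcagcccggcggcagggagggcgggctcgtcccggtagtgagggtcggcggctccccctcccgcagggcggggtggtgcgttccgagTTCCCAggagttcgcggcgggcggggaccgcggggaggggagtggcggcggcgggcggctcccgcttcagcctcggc
Pvrl2, chr7:19749574-19749823, minus strand: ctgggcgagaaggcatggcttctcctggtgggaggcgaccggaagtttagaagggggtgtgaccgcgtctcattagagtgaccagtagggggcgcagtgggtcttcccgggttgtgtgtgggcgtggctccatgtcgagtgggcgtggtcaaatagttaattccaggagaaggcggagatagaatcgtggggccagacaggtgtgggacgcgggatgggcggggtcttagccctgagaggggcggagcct
In *Pvrl3* the motif stood once, on the opposite strand as TTCCCA, with its first base 77 bases before the start. The windows of *Pvrl2*, *Pvrl4* and *Mllt4* did not hold these letters. Of all 32851 windows of this length, 21.6% held them, so that a match in 1 of 4 windows is close to the general share. The *Pvrl2* window held CAGGTG, the reverse complement of the E2 box CACCTG that repressors of the Snail and Zeb families recognize, 53 bases before the start, as 17.2% of all windows held it in either reading. The *Pvrl4* window held CAGCTG, an E box, 135 bases before the start, as 13% of all windows did. The letters CACGNG, searched like the others on both strands and a site type of Hes and Hey repressors, were found at 2 places in the *Mllt4* window and in no other of the 4, against 23.5% of all windows. None of these matches overlapped another. A match of letters is a description of the window and not evidence of binding.

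The values are log2 signals normalized by the authors, and a difference is the DAPT value less the control value on this scale. Differences were tested by limma within experiments, that is with the experiment as a block, and p-values were adjusted over all 20259 genes by the Benjamini-Hochberg method. The signal of 1 gene cannot be set against that of another on such an array, so only differences are compared between genes. Levels are at most placed roughly against the median over genes. Of the 8 genes, 0 passed an adjusted p of 0.05, as did 0% of all genes, among which the lowest adjusted p was 0.059. Among the 8 genes the adjusted p-values lay between 0.47 and 0.91. At an unadjusted p under 0.05, 1 of the 8 genes was higher with DAPT, against 5.27% of all genes, and 0 were lower, against 2.59% of all genes. The count of 1 was 3 without experiment 1, when *Pvrl1* and *Pvrl2* joined *Cdh4*, and 0 without experiment 2. The count over all genes moved the same way, from 1067 higher genes to 1359 without experiment 1 and 707 without experiment 2. With DAPT 4 of the 8 genes were higher in all 3 experiments, where 19.1% of all genes were, and 2 were lower in all 3, where 10.5% were. The remaining 2 went both ways. Of all calls at an unadjusted p under 0.05, 67.0% were higher with DAPT, and 55.2% after the arrays were quantile-normalized again. The median difference of the 8 genes was 0.09, beside 0.02 over all genes. In each of the 8 genes the DAPT and control arrays overlapped, since the experiments differed from each other by more than the conditions did. The share of all genes with such an overlap was not counted.

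**Figure D1:**
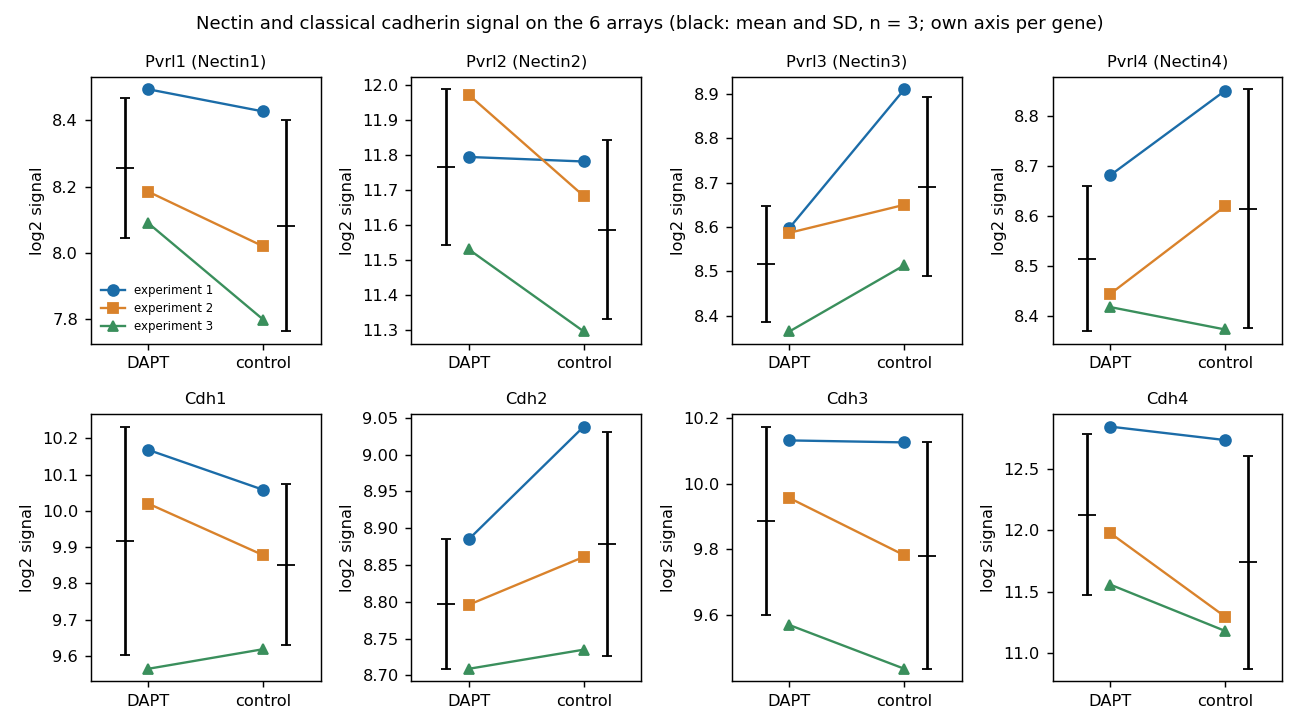
Log2 signal of the 8 nectin and classical cadherin genes on each of the 6 arrays, with lines joining the DAPT and control array of an experiment and black bars giving the mean and SD of 3 arrays. Each gene has its own axis. Experiment 3 is the lowest of the 3 lines in every panel, at both ends. With both arrays averaged, 36.6% of all genes were lowest in experiment 3.

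*Pvrl1*, the nectin gene of HCs, had log2 signals of 8.49, 8.19 and 8.09 on the DAPT arrays of experiments 1, 2 and 3, against 8.43, 8.02 and 7.80 on the control arrays. It was thus higher with DAPT in each experiment, by 0.07, 0.17 and 0.29. The mean difference was 0.17 (standard error 0.08), and its 95% interval from −0.03 to 0.37 included 0 (unadjusted p = 0.0763, adjusted p = 0.679 in limma). Of all genes 10.1% had a larger positive difference. Without experiment 3 the difference was 0.116. Of 17 measured HC markers, such as *Lhfpl5*, which encodes a component of the mechanotransduction complex, 16 were higher with DAPT at an unadjusted p under 0.05 and 17 were higher in all 3 experiments. The study itself names several of them as changed on these arrays, so that this count is not independent evidence. Their median difference was 0.44, 0.61 and 0.72 in experiments 1, 2 and 3, in the same order of experiments as the 3 differences of *Pvrl1* and of a larger size in each. A shared order of only 3 values carries little weight. The part of HC number in the difference of *Pvrl1* was not tested, and in whole tissue a change in the number of cells and a change of RNA per cell cannot be told apart.

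*Pvrl3*, the nectin gene of SCs, had log2 signals of 8.60, 8.59 and 8.37 with DAPT, against 8.91, 8.65 and 8.51 in control. It was lower in each experiment, with differences of −0.31, −0.06 and −0.15. The mean difference was −0.17 (standard error 0.08), with a 95% interval from −0.38 to 0.03 (unadjusted p = 0.0821, adjusted p = 0.690 in limma). Without experiment 1 it was −0.106, with an unadjusted p of 0.261. Only 6.18% of all genes had a more negative difference. Of 18 SC markers, 10 were lower at an unadjusted p under 0.05 and 0 were higher. Here too the study names several of them as lower on these arrays. The 10 included *Sox2*, *Jag1*, *Hey1*, *Heyl* and *Hes5*, which the study marks as known Notch targets. In all 3 experiments 13 of the 18 were lower. *S100a1*, *Slc1a3*, *Fgfr3*, *Otog* and *Cdkn1b*, with differences of 0.02, 0.02, −0.07, −0.09 and −0.25, went both ways. The median differences of the 18 SC markers were −0.55, −0.30 and −0.52 in experiments 1, 2 and 3. As for *Pvrl3*, the most negative value was that of experiment 1 and the least negative that of experiment 2. With 3 values this match too carries little weight. The part of SC number or state in the difference of *Pvrl3* was not tested.

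The pair was then compared directly, since HCs and SCs are joined through these nectins. On each array the log2 signal of *Pvrl3* was subtracted from that of *Pvrl1*. This value was −0.11, −0.40 and −0.28 with DAPT, against −0.48, −0.63 and −0.72 in control, so that each DAPT array lay above each control array. Its sign depends on the probes of the clusters and carries no meaning. With DAPT the value was higher by 0.38 in experiment 1, 0.23 in experiment 2 and 0.44 in experiment 3, a mean of 0.35 ± 0.11 (SD, n = 3 experiments), which corresponds to a 1.27-fold shift of *Pvrl1* relative to *Pvrl3*. An exact two-sided sign-flip permutation test over the experiments gave p = 0.25, and an exact two-sided permutation test of the 3 DAPT against the 3 control arrays gave p = 0.1. Both are the smallest values that these 2 tests can give with 3 experiments, so neither could pass 0.05. The second test leaves out the pairing of arrays by experiment and was not in the plan. Without any 1 experiment the mean lay between 0.30 and 0.41.

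**Figure D2:**
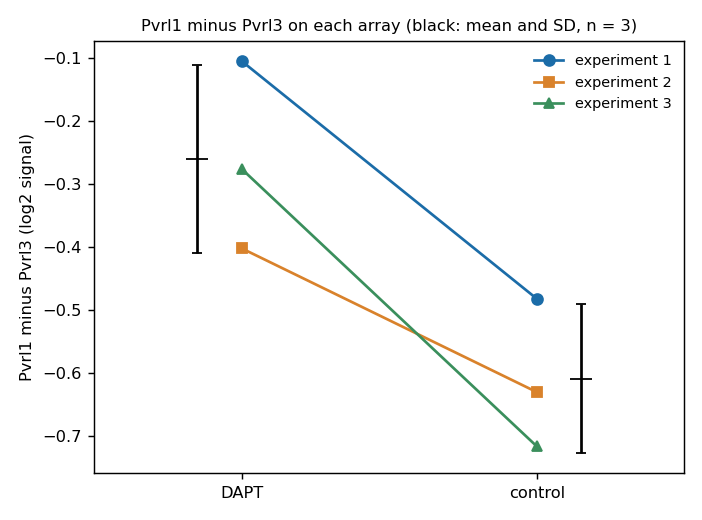
Log2 signal of *Pvrl1* minus that of *Pvrl3* on each array, DAPT on the left and control on the right, with lines joining the arrays of an experiment and black bars for the mean and SD of 3 arrays. The DAPT arrays lie between −0.40 and −0.11 and the control arrays between −0.72 and −0.48.

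*Pvrl2*, a nectin gene of many epithelia, had log2 signals of 11.79, 11.97 and 11.53 with DAPT, against 11.78, 11.68 and 11.30 in control. It was higher by 0.01, 0.29 and 0.24, so that experiment 1 hardly contributed. The mean difference was 0.18 (standard error 0.09, 95% interval from −0.04 to 0.39, unadjusted p = 0.0867, adjusted p = 0.699 in limma). A second, dimmer cluster of *Pvrl2* was also higher in all 3 experiments, by 0.24, 0.09 and 0.13, a mean of 0.15 (standard error 0.08). *Pvrl4*, a nectin gene best known from skin and placenta, had 8.68, 8.44 and 8.42 with DAPT, against 8.85, 8.62 and 8.37 in control. It was lower in experiments 1 and 2, by −0.17 and −0.18, and higher in experiment 3, by 0.05. Its mean difference of −0.10 (standard error 0.08, 95% interval from −0.31 to 0.11) was within the error. The differences of the 4 nectin genes were thus not of 1 sign.

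*Cdh4*, which encodes R-cadherin, a cadherin first found in the retina, had the largest difference of the 8 genes. Its log2 signals were 12.85, 11.98 and 11.56 with DAPT, against 12.74, 11.30 and 11.18 in control. It was higher in each experiment, by 0.11, 0.68 and 0.38, with a mean of 0.39 (standard error 0.12, 95% interval from 0.09 to 0.69), or 1.31-fold. The unadjusted p was 0.0185 and the adjusted p 0.474 in limma, and 1.5% of all genes had a larger positive difference. The SD of the 3 differences was 0.287, and the standard error, interval and p of limma draw this spread towards that of all genes. Without experiment 2 the difference was 0.245 and its unadjusted p 0.108. Without the block by experiment the unadjusted p was 0.440, since the 3 control arrays alone spanned 1.56. The other 2 clusters of *Cdh4* in the annotation were dimmer. One was lower in experiment 1, by −0.08, and higher in experiments 2 and 3, by 0.78 and 0.20, with a mean of 0.30 (standard error 0.18). The other was higher by 0.04, 0.39 and 0.07, a mean of 0.17 (standard error 0.10). All 3 clusters therefore had their largest difference in experiment 2 and little in experiment 1. When the 3 clusters were averaged, the difference was 0.29 with an unadjusted p of 0.0606. The HC markers, with median differences of 0.44, 0.61 and 0.72, were also lowest in experiment 1, but highest in experiment 3, and their part in the difference of *Cdh4* was not tested. The median differences in experiments 1, 2 and 3 were 0.11, −0.05 and −0.19 for 9 epithelium markers, 0.13, 0.06 and 0.02 for 13 mesenchyme markers and 0.18, 0.06 and 0.04 for 14 neuron markers.

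For the other cadherins the differences were small. *Cdh1*, which encodes E-cadherin, had log2 signals of 10.17, 10.02 and 9.57 with DAPT, against 10.06, 9.88 and 9.62 in control, a mean difference of 0.07 (standard error 0.08, 95% interval from −0.13 to 0.26). It was higher in experiments 1 and 2 and lower in experiment 3. *Cdh2*, which encodes N-cadherin, had 8.89, 8.80 and 8.71 with DAPT, against 9.04, 8.86 and 8.74 in control. It was lower in each experiment, by −0.15, −0.07 and −0.03, a mean of −0.08 (standard error 0.075, 95% interval from −0.27 to 0.10). *Cdh3*, which encodes P-cadherin, had 10.13, 9.96 and 9.57 with DAPT, against 10.13, 9.78 and 9.44 in control. It was higher by 0.007, 0.17 and 0.13, a mean of 0.10 (standard error 0.08, 95% interval from −0.09 to 0.30). These 3 intervals leave room for differences between −0.27 and 0.30 on the log2 scale.

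**Figure D3:**
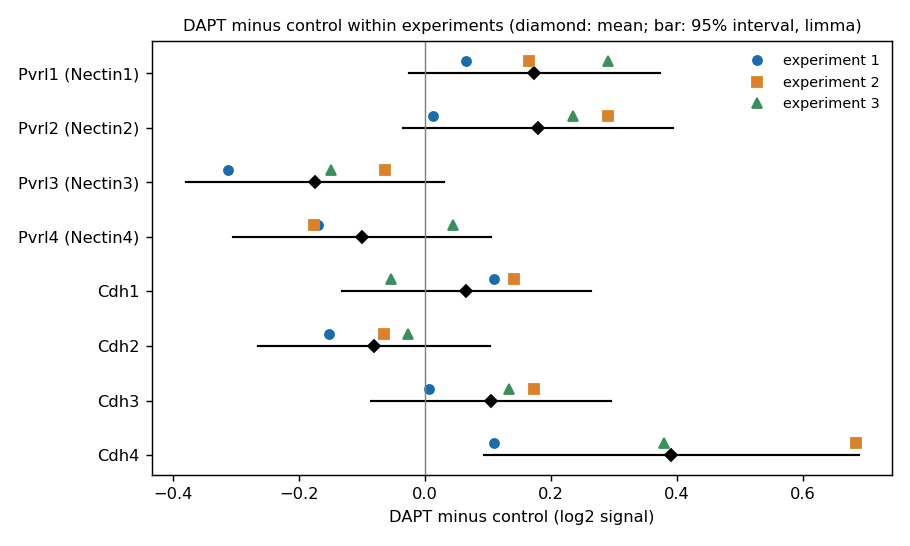
DAPT minus control on the log2 scale for the 8 genes, with the value of each experiment as a colored symbol, the mean as a diamond and its 95% interval from limma as a bar. The interval of *Cdh4*, from 0.09 to 0.69, is the only one of the 8 that does not include 0.

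In the 8 genes the experiments differed more than the conditions did. When the DAPT and control arrays of an experiment were averaged, all 8 genes were lowest in experiment 3, as 36.6% of all genes were. Of the 8, 7 lay in the descending order of experiment 1, 2 and 3, an order that 22.4% of all genes had. The exception was the brightest cluster of *Pvrl2*, which was highest in experiment 2, at 11.83, beside 11.79 in experiment 1 and 11.41 in experiment 3. Its second, dimmer cluster had the descending order, with means of 10.01, 9.52 and 9.24. The distance between the highest and lowest experiment exceeded the difference between DAPT and control in all 8 genes, by 1.80 times in *Pvrl3* and up to 7.91 times in *Cdh1*. The share of all genes with such an excess was not counted. A gene with a small difference reaches such an excess easily, so it cannot be read as a trait of these 8 genes. The distance was 0.47 at the median of the 8 genes and 0.22 at the median of all genes. In *Cdh4* it was 1.43, with means of 12.79, 11.64 and 11.37, and only 0.444% of all genes spanned more. For *Pvrl1* the means were 8.46, 8.10 and 7.94, and for *Cdh3* they were 10.13, 9.87 and 9.50.

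Markers of some cell types followed the experiments too. Of 9 epithelium markers, such as the claudin genes *Cldn3* and *Cldn4*, 7 had the order of experiment 1, 2 and 3, and 9 were lowest in experiment 3. Their median, relative to the mean of each gene, was 0.34, −0.01 and −0.32, beside 0.22, 0.003 and −0.24 for the nectins and classical cadherins. Of 13 mesenchyme markers 11 had the opposite order, with medians of −0.48, 0.03 and 0.36. Endothelium markers had the opposite order in 8 of 10 genes and macrophage markers in 7 of 8. Neuron markers were lowest in experiment 1 in 12 of 14 genes. Of 17 HC markers only 1 had the order of experiment 1, 2 and 3. Of these HC markers 13 were lowest in experiment 2, and 10 were highest in experiment 3. *Pvrl1*, at 8.46, 8.10 and 7.94, was instead highest in experiment 1 and lowest in experiment 3. Of 18 SC markers 8 had the order of experiment 1, 2 and 3. The culture times in the labels were 23, 19 and 24 hours, and their part in these orders was not tested. The part of the share of epithelium in the levels of the 8 genes was not tested. Comparison within experiments takes such a difference out only as far as it was the same in both arrays of an experiment. The mean signal over the epithelium markers ranged from 9.80 to 10.56 with DAPT and from 9.91 to 10.42 in control. That over the mesenchyme markers ranged from 8.85 to 9.50 with DAPT and from 8.71 to 9.53 in control. These ranges span the experiments and do not compare the 2 arrays of 1 experiment. Within experiments 1, 2 and 3 the median difference of the epithelium markers was 0.11, −0.05 and −0.19. Of these markers 2 were higher and 1 was lower at an unadjusted p under 0.05 in limma.

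**Figure D4:**
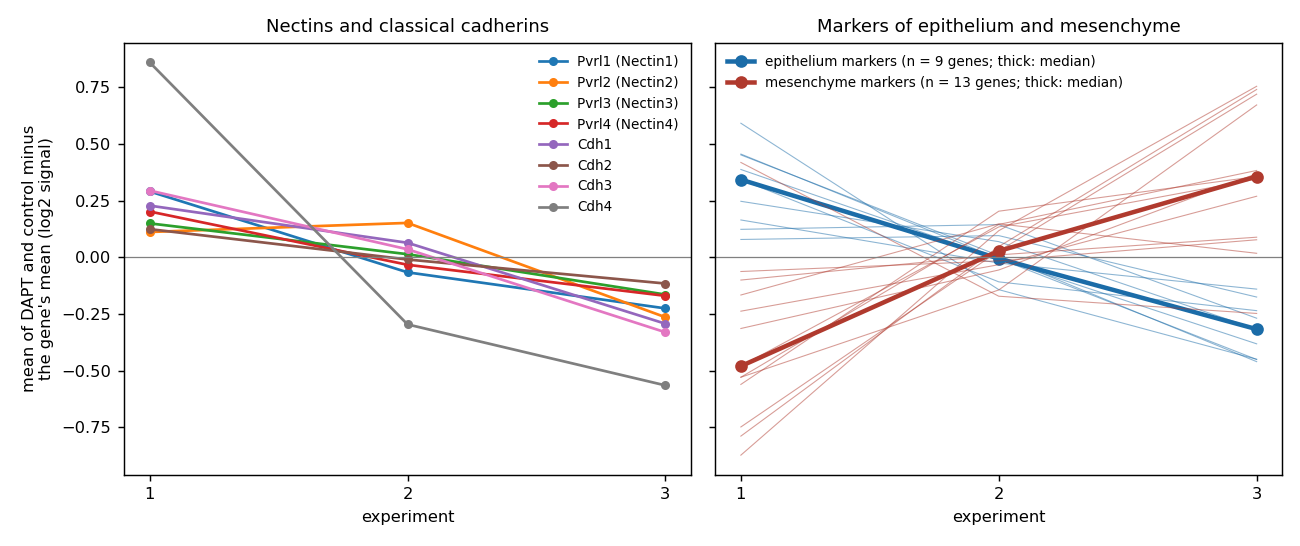
Mean of the DAPT and control array of each experiment minus the mean of the gene over the experiments, on the log2 scale, for the 8 nectin and classical cadherin genes (left, a line per gene) and for 9 epithelium and 13 mesenchyme markers (right, a thin line per gene, thick lines for the medians). The 8 genes are all lowest in experiment 3, as are the 9 epithelium markers and 36.6% of all genes. Of the 13 mesenchyme markers, 11 are highest there.

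Among themselves the 8 genes ran together over the 6 arrays to different degrees. Pearson's r of the log2 signals was 0.97 for *Pvrl1* with *Cdh4* and 0.93 with *Cdh3*, and 0.96 for *Pvrl3* with *Cdh2*, but 0.52 for *Pvrl1* with *Pvrl3*. *Cdh3* and *Cdh1*, which are neighbors in the genome with 0 other protein-coding genes between them, had r = 0.96. These are descriptions over 6 arrays that share 3 experiments and their tissue composition. Among 10128 other genes above the median signal, those most like *Pvrl1* were *Lipo3*, *Mipol1*, *Hpn*, *Wwc1* and *2300009A05Rik*, with r between 0.993 and 0.997, and those most like *Pvrl3* were *Ccne1*, *Fkbp9*, *Slc35f3*, *Fzd8* and *Pls1*, with r between 0.982 and 0.992. With 177 genes above r = 0.95 for *Pvrl1* and 39 for *Pvrl3*, these names are the ends of long lists.

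The genes around the nectins and cadherins in the junction were looked at in the same fit. Of 15 catenins and actin linkers, 0 had an unadjusted p under 0.05 in either direction, and their differences lay between −0.14 and 0.13 with a median of −0.03. They included *Ctnnb1* at −0.06, *Ctnna1* at −0.05 and *Ctnnd1* at −0.14, which encode the β-, α- and p120-catenins that bind cadherin tails. Of 18 measured nectin-like molecules and afadin partners, 0 had an unadjusted p under 0.05, with differences between −0.24 and 0.13 and a median of −0.02. Of these, 6 were lower in all 3 experiments, as 10.5% of all genes were, and 1 was higher, as 19.1% were. *Cadm1*, which encodes a nectin-like adhesion molecule, had 0.001. *Rap1b*, which encodes a small GTPase that binds afadin, had −0.20 (unadjusted p = 0.0533 in limma). *Lmo7* had −0.18, and *Cdc42* had −0.24 but was higher by 0.03 in experiment 1. In size, the differences of *Pvrl1*, 0.17, and *Pvrl3*, −0.17, were no larger than those of *Rap1b*, *Lmo7* and *Cdc42*.

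Of 20 other cadherins, 4 were higher at an unadjusted p under 0.05 and 0 were lower, with a median of 0.07. *Cdh23*, which encodes a tip-link protein of HC bundles, had log2 signals of 9.16, 8.26 and 8.62 with DAPT, against 8.85, 7.89 and 8.21 in control. It was higher in each experiment, by 0.36 on average (standard error 0.07, adjusted p = 0.322 in limma). *Cdh22*, *Cdh12* and *Cdh20* had differences of 0.24, 0.24 and 0.23, and their mean signals in either condition, between 5.61 and 7.74, were below the median over all genes of 7.79. The count of 4 became 1 without the block by experiment and 1 without experiment 2, and it was 2 without experiment 3. Over all genes the 1067 higher genes became 394, 707 and 720 in these 3 fits. Of 16 transcriptional regulators of cadherin genes, 1, the homeobox gene *Gsc*, was higher at 0.30 (standard error 0.08, adjusted p = 0.391 in limma) and 0 were lower. *Snai2*, which encodes a repressor of E-cadherin, had 8.30, 8.26 and 8.61 with DAPT, against 7.85, 8.24 and 8.36 in control, a difference of 0.24 (unadjusted p = 0.0571 in limma). *Zeb1* had −0.10 and *Zeb2* −0.12.

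**Figure D5:**
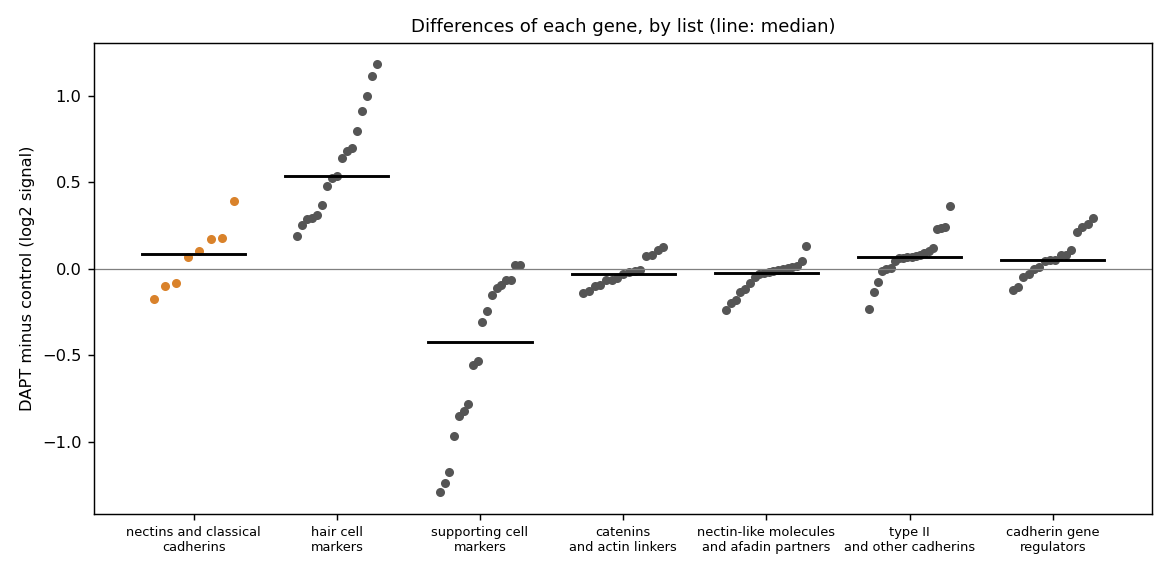
DAPT minus control on the log2 scale for each gene, by list, with points sorted within a list and a line at the median. The nectins and classical cadherins, at a median of 0.09, lie between the HC markers, at 0.53, and the SC markers, at −0.42, and the medians of the 4 lists of other junction genes and regulators lie between −0.03 and 0.07.

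Markers were placed roughly against the median signal, as a check that their RNA was seen. Probes differ between genes, so this placing does not rank cell types or tell epithelium from mesenchyme. All 9 epithelium markers and all 18 SC markers were above the median signal over genes, as were 14 of 17 HC, 12 of 13 mesenchyme, 7 of 14 neuron, 5 of 10 endothelium and 3 of 8 macrophage markers. The Notch target genes *Hey1* and *Hes5* were lower with DAPT in all 3 experiments, by −1.29 and −0.56. Of 9 pericyte markers 5 were lower at an unadjusted p under 0.05 and of 6 melanocyte markers 3 were, with 0 higher in either list. Array medians lay between 6.297 and 6.364, and precision is limited by the small number of arrays.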

How the data were processed

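RNA of 6 pools of cochlear epithelium was hybridized to Affymetrix Mouse Exon 1.0 ST arrays. The authors extracted and normalized the scans in Partek with its extended meta-probe set and RMA, and the deposited values are quantile-normalized log2 signals per transcript cluster. The submitters' processing notes name mm9, and gene names came from the array's annotation, updated by gene ID. Of 115830 clusters, 25539 had 1 gene, 2300 had several and 87991 had none named here. The brightest cluster over the 6 arrays stood for a gene. DAPT was compared with control by limma 3.58.1 in R 4.3.3 (lmFit, eBayes) with the experiment as a block, although the study names a one-way model, since each experiment held 1 array of each condition. The numbers pair the arrays: over all genes, the DAPT and control arrays of an experiment deviated from their group means together, with r of 0.556, 0.434 and 0.513. The r between experiments was at most 0.00925, but centring on group means then holds it near or below 0, so it adds no separate support. Labels call the arrays biological replicates, so p-values measure the spread between 3 experiments. In limma, however, the variance of each gene is drawn towards that of all genes. A fit within experiments without this step was not run. Differences between the genes *Pvrl1* and *Pvrl3* were tested by exact permutation. The sign-flip test over the experiments used NumPy 2.4.6. The test of DAPT against control arrays used SciPy 1.17.1. The fit was tested on simulated data. Alternatives were no block, a plain one-way comparison, a trended robust prior, quantile normalization again, median centring, a filter at the median signal, the mean of all clusters, array weights, and leaving out each experiment. Second clusters were fitted over all 25539 clusters. The genes and lists were chosen with earlier results of these data known. Named were all members, the listed genes with the largest differences at an unadjusted p under 0.05 in 1 direction in all 3 experiments, up to 6 a list, and the 5 genes most like *Pvrl1* and *Pvrl3*. *Hes5*, *Rap1b*, *Lmo7*, *Cdc42*, *Snai2*, *Zeb1*, *Zeb2*, *Cadm1*, *S100a1*, *Slc1a3*, *Fgfr3*, *Otog*, *Cdkn1b* and the catenin genes were chosen after their values were seen.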

Additional observations from a re-analysis of the deposited data

How the results depend on the processing

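Under the 11 alternatives none of the 8 genes changed the sign of its difference and 0 passed an adjusted p of 0.05, while between 0 and 30 of all genes did. The differences ranged from 0.12 to 0.23 for *Pvrl1*, 0.12 to 0.26 for *Pvrl2*, −0.23 to −0.11 for *Pvrl3*, −0.17 to −0.06 for *Pvrl4*, 0.03 to 0.13 for *Cdh1*, −0.11 to −0.05 for *Cdh2*, 0.07 to 0.15 for *Cdh3* and 0.245 to 0.53 for *Cdh4*. Without the replicate block and in the plain one-way comparison *Cdh4* kept 0.391 but had unadjusted p-values of 0.440 and 0.568 in limma and in the plain model, so that 0 genes of the 8 were below 0.05, and of all genes 593 and 705 were, in place of 1592. With the mean of all clusters *Cdh4* had 0.287, and 0 of the 8 and 1587 of all genes were below 0.05. With array weights *Pvrl1* at 0.18 and *Pvrl2* at 0.232 were also below 0.05, 3 of the 8 and 2543 of all genes. After quantile normalization again *Pvrl2* at 0.201 was, which gave 2 of the 8 and 1597 of all genes. Above the median signal 804 of 10129 genes were. Leaving out 1 experiment gave between 0 and 3 of the 8, with *Pvrl1* between 0.116 and 0.228, *Pvrl2* between 0.124 and 0.262, and *Cdh4* between 0.245 and 0.531. The 0 were without experiment 2, and the 3 were *Pvrl1*, *Pvrl2* and *Cdh4* without experiment 1. Of all genes 2305 were below 0.05 without experiment 1, 1071 without experiment 2 and 1270 without experiment 3. *Pvrl1* against *Pvrl3* lay between 0.303 and 0.409. Of the calls over all genes at an unadjusted p under 0.05, 67.0% were higher with DAPT, 55.2% after quantile normalization again, and between 56.7% and 66.0% without 1 experiment. Over the 8 genes and the other genes named by rule, 368 alternative values kept their side of an unadjusted p of 0.05, 70 went above it and 5 went below it, each with its sign kept. With 3 experiments, the 95% interval reached between 0.184 and 0.297 to either side of the difference in the 8 genes.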
